A study of Mus musculus with 6 samples.

Results

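Expression of 10 genes of the matrix metalloproteinase (MMP) system was measured in colon tissue carrying tumors. The genes were the proteases Mmp2, Mmp3, Mmp7, Mmp9, Mmp10, Mmp12, Mmp13 and Mmp14 and the tissue inhibitors of metalloproteinases Timp1 and Timp3. They were taken by symbol from the gene probes of a one-color Agilent mouse array, and every probe that carried one of the symbols was kept. This gave 16 probes for the 10 genes, out of 56605 gene probes for 37325 gene names.

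All 6 mice were male C57BL/6 mice, obtained at 6 to 8 weeks. Each received azoxymethane (AOM), a colon carcinogen, at 10 μg/g and then 2% dextran sulfate sodium (DSS), an irritant of the colon lining, in the drinking water for 5 days. The treated group (n = 3, labelled Rgnanomedicine) was given RG@M-γ-CD by mouth. RG@M-γ-CD is a nanomedicine of regorafenib (RG), an inhibitor of several receptor kinases, carried in mannose-modified γ-cyclodextrin, at 30 μg/g of the complex or 10 μg/g of RG. The control group (n = 3) carried the same AOM and DSS tumors and was given PBS by mouth. Treatment lasted 21 days in both and was followed by 14 days of observation. The comparison asks how the nanomedicine altered gene expression in the tumor-bearing colon. Mice given empty carrier or free drug were not analysed here, so the effects of carrier and drug cannot be told apart. The tissue holds tumor, stroma and immune cells together, and fewer cells of a type and less RNA per cell cannot be told apart in it.

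MMPs are zinc-dependent proteases that are secreted or held at the cell surface as inactive precursors. Once a propeptide is cleaved they cut collagens, elastin, proteoglycans and many signaling proteins. TIMPs bind the active site and block it, so the balance of both sets the rate of matrix turnover. In the inflamed colon the stromelysins, collagenases and gelatinases are made mainly by activated fibroblasts, macrophages and neutrophils, whereas matrilysin (Mmp7) is made by epithelial tumor cells.

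The promoter sequences are shown because several of the proteases described here lie side by side in a cluster on chromosome 9. By RefSeq order the cluster runs Mmp13, Mmp12, Mmp1b, Mmp3, Mmp1a, Mmp10, Mmp8, Mmp27, Mmp20 and Mmp7. The 100 bases before the annotated start of 5 of these genes are given on the plus strand from RefSeq, build GRCm38.p6. Capitals mark the binding motif of the AP-1 factors Fos and Jun (TGAGTCA, or TGACTCA on the other strand) and the letters TATAAA, the motif of a TATA box.
Mmp13, chr9:7272414-7272513: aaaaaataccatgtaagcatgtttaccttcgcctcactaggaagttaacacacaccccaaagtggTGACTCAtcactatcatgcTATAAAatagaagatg
Mmp12, chr9:7347274-7347373: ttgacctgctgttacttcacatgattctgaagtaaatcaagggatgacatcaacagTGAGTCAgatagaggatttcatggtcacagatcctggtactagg
Mmp3, chr9:7445722-7445821: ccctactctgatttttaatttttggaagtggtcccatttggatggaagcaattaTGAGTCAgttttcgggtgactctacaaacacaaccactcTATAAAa
Mmp10, chr9:7502242-7502341: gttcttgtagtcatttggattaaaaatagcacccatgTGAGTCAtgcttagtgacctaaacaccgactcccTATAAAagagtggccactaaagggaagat
Mmp7, chr9:7691990-7692089: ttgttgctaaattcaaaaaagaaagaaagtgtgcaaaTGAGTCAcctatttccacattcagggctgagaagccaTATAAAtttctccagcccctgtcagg

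The AP-1 motif began 35 bases before the annotated start in Mmp13, 44 in Mmp12, 46 in Mmp3 and 63 in both Mmp10 and Mmp7. It was found in 5 of the 8 member genes with a promoter window. It was not among the letters searched for Mmp14, Timp1 and Timp3. Nor was it in the other annotated windows of Mmp12, upstream of the one shown, and of Mmp7, downstream of it. Over all 32851 promoter windows of 27025 genes, 4.46% held the motif on either strand in the 250 bases before the start. A TATAAA on the gene's strand in the 50 bases before the start was found in 2.63% of windows, and 0.234% held both. Mmp13, Mmp3, Mmp10 and Mmp7 were the 4 members that held both. Their TATAAA began 16, 7, 29 and 26 bases before the annotated start, in that order, and whether it acts as a TATA box was not tested. Mmp2 and Mmp9 had no window. A motif match describes letters only.

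Each value below is the log2 intensity of a probe minus the 75th percentile of its array, so 0 is the level of that percentile and 1 unit is a doubling. Levels of different probes are not set against each other, except that summed levels add them. Where a gene had several probes, the brightest one entered the fit. A probe counted as well above background where the scanner software marked it so. Between 49.6% and 55.1% of gene probes were marked on each array, and no gene spot was saturated. Colon epithelial markers were present on all 6 arrays, with summed levels of 876 to 1290 times the 75th percentile.

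Some arrays stand apart or sit oddly with their labels. RG@M-γ-CD replicate 2 correlated with the other 5 arrays at 0.94 to 0.98 over gene probes, against 0.97 to 0.99 among the rest. The study's own clustering of its changed genes sets RG@M-γ-CD replicates 2 and 3 beside PBS replicate 1, and RG@M-γ-CD replicate 1 beside PBS replicates 2 and 3. The labels of the samples were followed here. All results on the members were therefore also obtained without RG@M-γ-CD replicate 1 and PBS replicate 1, without each array, and with those sides as the groups.

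Of the 10 members, 9 read lower and 1 read higher in the RG@M-γ-CD mice by group mean. The median change of the members was -1.10 on the log2 scale, against -0.01 over the 19087 genes tested, of which 52.8% read lower. The members were chosen with earlier results of these data known. The 7 other MMPs that could be tested had a median of 0.12, with 4 higher and 3 lower. Mmp9 and Mmp12 passed the filter on dim probes through the PBS arrays alone, where they were higher, and among the 8 members well above background on all 6 arrays, 7 read lower, with a median of -0.90. In 6 members, Mmp9 and Mmp12 among them, the mean was at least 2-fold lower, which held for 1.13% of all genes (1.83% in either direction). Among the 8 members well above background on all 6 arrays, 4 were 2-fold lower, beside 0.729% of all genes under that filter. The count of 6 fell to 1, Mmp3, without RG@M-γ-CD replicate 2, where 0.979% of all genes were 2-fold lower. It fell to 3 with normexp background correction, where 0.424% were. No member passed limma's test after Benjamini-Hochberg adjustment over all genes (0 of 10, adjusted p = 1 for each), and no gene of the whole array did (0%, smallest adjusted p = 0.817). At an unadjusted p below 0.05, limma gave 2 members, Mmp3 and Timp3, and 2.20% of all genes. The 6 arrays did not overlap between groups in 3 members, Mmp3, Mmp10 and Timp3, and in 4.57% of all genes. With 3 mice against 3, an exact two-sided permutation test cannot go below 0.1.

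**Figure D1:**
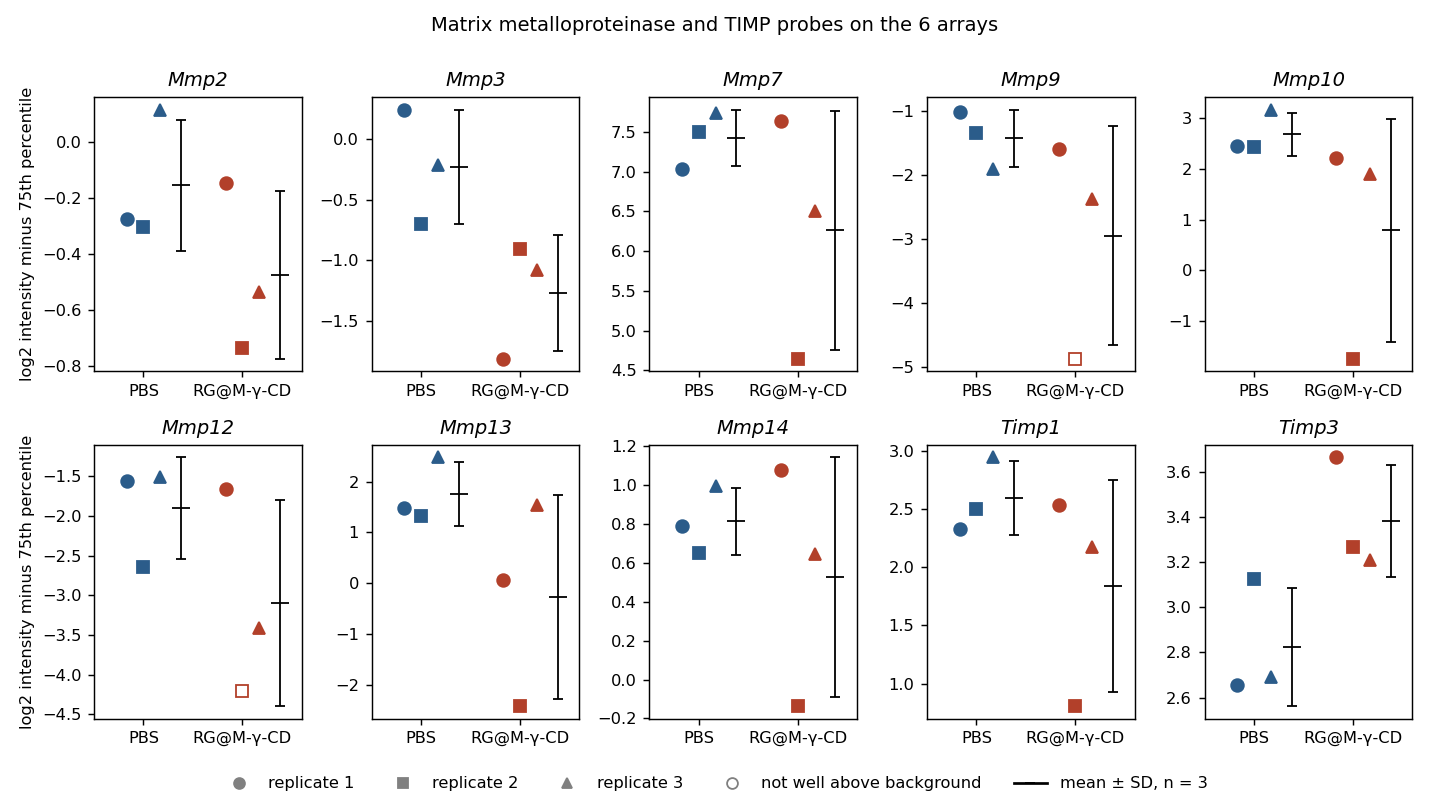
Log2 intensity minus the array's 75th percentile (vertical axis, scaled separately for each gene) for the brightest probe of each of the 10 genes in PBS and RG@M-γ-CD mice. Symbols give the replicate, open symbols an array on which the probe was not well above background, and bars the mean ± SD of 3 arrays. RG@M-γ-CD replicate 2 is the lowest array in 8 genes, and the groups are apart in Mmp3, Mmp10 and Timp3.

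The stromelysins Mmp3 and Mmp10 cleave proteoglycans, laminin and fibronectin and activate other pro-MMPs. Mmp3 read -1.82, -0.91 and -1.09 on RG@M-γ-CD replicates 1 to 3 and 0.24, -0.70 and -0.21 on PBS replicates 1 to 3. Every treated array was below every control array, although RG@M-γ-CD replicate 2 and PBS replicate 2 lay close together. The means were -1.27 ± 0.48 and -0.23 ± 0.47 (SD, n = 3), a change of -1.04 (SE 0.34, 95% interval -1.85 to -0.24) or 2.06-fold lower (limma adjusted p = 1, exact permutation p = 0.1). Mmp3 was the 1 protease whose lowest array was RG@M-γ-CD replicate 1 and not replicate 2. Leaving out RG@M-γ-CD replicate 2 gave a change of -1.23, and leaving out the first replicate of both groups -0.54.

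Mmp10 read 2.21, -1.74 and 1.89 on the treated arrays and 2.44, 2.44 and 3.17 on the control arrays. The groups did not overlap, but the gap between them was narrow for RG@M-γ-CD replicate 1 and wide for replicate 2. The means were 0.79 ± 2.20 and 2.69 ± 0.42, a change of -1.90 (SE 1.03, interval -4.36 to 0.57) or 3.73-fold lower (limma adjusted p = 1, exact permutation p = 0.1). The change shrank to -0.63 once RG@M-γ-CD replicate 2 was dropped.

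Mmp13 is the main interstitial collagenase of the mouse and cleaves fibrillar collagen. It read 0.07, -2.42 and 1.54 on the treated arrays and 1.48, 1.32 and 2.48 on the control arrays. RG@M-γ-CD replicate 3 lay above 2 of the 3 control arrays, so the groups overlapped. Its change of -2.03 (SE 0.96, interval -4.34 to 0.29), from a mean of 1.76 ± 0.63 to -0.27 ± 2.0, was 4.08-fold lower (limma adjusted p = 1, exact permutation p = 0.3). The value with RG@M-γ-CD replicate 2 dropped was -0.95.

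The gelatinases Mmp2 and Mmp9 cleave denatured collagen and the collagen of basement membranes. Mmp9 is stored in neutrophil granules and made by macrophages, and Mmp2 is made by fibroblasts. Mmp9 was measured by a pair of probes of 60 bases. The brighter one, which entered the fit, covers chr2:164779091-164780300 of build mm9. Its target sequence is shown because its bases are drawn from a genomic span of 1210 bases, so it reads joined exons.
Mmp9 probe: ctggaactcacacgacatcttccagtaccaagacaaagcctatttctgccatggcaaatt

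This Mmp9 probe read -1.60, -4.87 and -2.38 on the treated arrays and -1.03, -1.36 and -1.91 on the control arrays. The first treated array lay above PBS replicate 3, and RG@M-γ-CD replicate 2, the lowest, was not well above background. The means were -2.95 ± 1.71 and -1.43 ± 0.45, a change of -1.52 (SE 0.81, interval -3.47 to 0.44) or 2.86-fold lower (limma adjusted p = 1, exact permutation p = 0.2). The second Mmp9 probe, at chr2:164780620-164780679, read -2.58, -5.11 and -2.60 against -1.61, -1.80 and -1.99. By this probe too RG@M-γ-CD replicate 2 was not well above background, so the size of the change, -1.63, rests in part on a reading at background (exact permutation p = 0.1). The groups did not overlap. The brighter probe gave -0.56 with RG@M-γ-CD replicate 2 dropped, and -0.78 with normexp background correction.

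Mmp2 read -0.15, -0.74 and -0.54 on the treated arrays and -0.27, -0.30 and 0.12 on the control arrays. The groups overlapped through RG@M-γ-CD replicate 1, and the whole range of the 6 arrays was 0.85. The change was -0.32 (SE 0.22, interval -0.85 to 0.21, limma adjusted p = 1, exact permutation p = 0.3).

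Mmp14 is a membrane-bound MMP that cleaves collagen at the cell surface and activates pro-Mmp2. It read 1.08, -0.14 and 0.64 on the treated arrays and 0.79, 0.65 and 0.99 on the control arrays. RG@M-γ-CD replicate 1 was the highest of the 6 arrays and replicate 2 the lowest. The change was -0.28 (SE 0.32, interval -1.05 to 0.49, limma adjusted p = 1, exact permutation p = 0.6), and dropping RG@M-γ-CD replicate 2 turned it to 0.05.

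Mmp12, or macrophage elastase, cleaves elastin and is made by macrophages. Its brightest probe read -1.67, -4.21 and -3.42 on the treated arrays and -1.56, -2.64 and -1.51 on the control arrays. The first treated array read like the upper control arrays, and RG@M-γ-CD replicate 2 was not well above background. The change was -1.19 (SE 0.67, interval -2.81 to 0.42) or 2.29-fold lower (limma adjusted p = 1, exact permutation p = 0.2). Dropping RG@M-γ-CD replicate 2 gave -0.64, dropping RG@M-γ-CD replicate 1 gave -1.91, and normexp background correction gave -0.58. The other 2 Mmp12 probes were dim and were not tested. One read -4.10, -4.55 and -4.91 against -3.40, -4.99 and -3.53, and was well above background on 1 treated and 2 control arrays. The other read -4.91, -6.26 and -6.09 against -4.10, -4.02 and -3.76, and was well above background on no treated array and on 2 control arrays. No fold is given for it, since it would rest on readings at background.

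Mmp7, or matrilysin, is the MMP of epithelial cells, and it cleaves the precursors of defensins in Paneth cells. Its brighter probe read 7.64, 4.65 and 6.50 on the treated arrays and 7.04, 7.51 and 7.74 on the control arrays. RG@M-γ-CD replicate 1 lay within the control arrays, and replicates 2 and 3 lay below all of them. The change was -1.16 (SE 0.72, interval -2.89 to 0.56) or 2.24-fold lower (limma adjusted p = 1, exact permutation p = 0.3). The second probe had the same order of treated arrays, with 6.64, 3.30 and 5.24 against 5.76, 6.34 and 6.64, and a change of -1.19. For the brighter probe, dropping RG@M-γ-CD replicate 2 gave -0.36 and dropping RG@M-γ-CD replicate 1 gave -1.85.

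**Figure D2:**
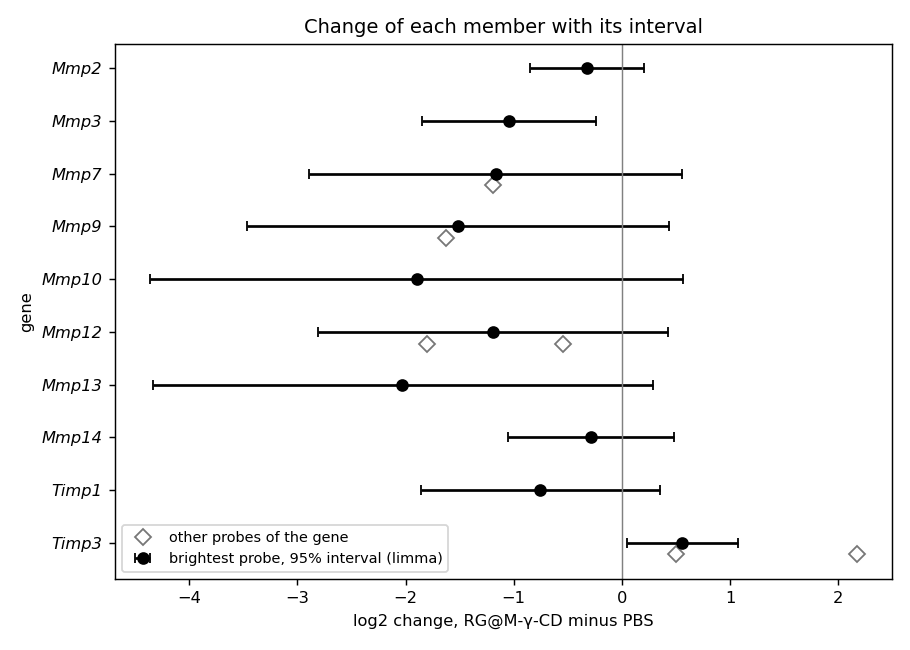
Log2 change (RG@M-γ-CD minus PBS, horizontal axis) of each gene by its brightest probe, with limma's 95% interval, and of the other probes of the gene as open diamonds. The intervals of Mmp3 and Timp3 leave out 0, the other 8 include it, and the diamond of Timp3 at 2.18 stands far from the other 2 Timp3 probes.

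The 2 inhibitors differed in direction. Timp1, a secreted inhibitor that inflammatory cytokines raise in stromal cells, read 2.54, 0.81 and 2.17 on the treated arrays and 2.33, 2.50 and 2.95 on the control arrays. The first treated array lay above 2 control arrays. The change was -0.75 (SE 0.46, interval -1.86 to 0.35) or 1.69-fold lower (limma adjusted p = 1, exact permutation p = 0.3), and dropping RG@M-γ-CD replicate 2 gave -0.24.

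Timp3 is held in the extracellular matrix and inhibits ADAM proteases as well as MMPs. It was the 1 member that read higher, with 3.66, 3.27 and 3.21 on the treated arrays and 2.66, 3.12 and 2.69 on the control arrays. Every treated array was above every control array, with PBS replicate 2 nearest to them. The change was 0.56 (SE 0.21, interval 0.05 to 1.07) or 1.47-fold higher (limma adjusted p = 1, exact permutation p = 0.1). Dropping RG@M-γ-CD replicate 2 left it at 0.61.

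The other 2 Timp3 probes also gave groups that did not overlap. The nearer one, 345 bases along, read 3.16, 3.61 and 3.21 against 2.76, 3.0 and 2.71, a change of 0.50. The third probe carries the identifier of a separate Ensembl transcript and lies 42289 bases away on mm9. It read -1.88, 0.33 and -0.84 on the treated arrays and -2.32, -3.36 and -3.24 on the control arrays, a change of 2.18 (limma adjusted p = 1 with every probe fitted, exact permutation p = 0.1). The probes thus had the same direction and different sizes, and the mean of all 3 was 1.08.

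The members varied more between arrays than most genes did. Their range over the 6 arrays had a median of 2.42 on the log2 scale, against 0.72 over all genes, and it was at least 2 in 7 members and in 9.57% of all genes. RG@M-γ-CD replicate 2 was the lowest array in 8 members, where 36.7% of all genes had their lowest value. RG@M-γ-CD replicate 1 was the highest in 2 members, Mmp14 and Timp3, and in 28.9% of all genes. PBS replicate 3 was the highest in 6 members, where 13.4% of all genes had their highest value. The lowest array was RG@M-γ-CD replicate 1 for Mmp3 and PBS replicate 1 for Timp3. The summed level of the 8 proteases was 209, 27.7 and 100 times the 75th percentile on the treated arrays and 144, 193 and 232 on the control arrays. Mmp7 makes up most of each sum, so the sums describe mainly this gene. The mean log2 level of the 8 was 0.72, -1.3 and 0.39 on the treated arrays. On the control arrays it was 1.14, 0.86 and 1.36.

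The choice of arrays changed the sizes more than the directions. Dropping RG@M-γ-CD replicate 2 moved the median change of the members to -0.46, with 8 of 10 lower. Dropping RG@M-γ-CD replicate 1 moved it to -1.48, and 9 of 10 members then had groups that did not overlap, against 25.9% of all genes. In that fit limma called 206 genes (1.06%) and no member, and the lowest adjusted p of a member was 0.127, for Mmp12. Without RG@M-γ-CD replicate 1 and PBS replicate 1 the median was -1.49 and the groups did not overlap in 9 members, against 49.3% of all genes, with 0 called by limma (0%) and 2406 genes at an unadjusted p below 0.05. With RG@M-γ-CD replicates 2 and 3 and PBS replicate 1 as one side and the remaining arrays as the other, the median was -0.99 and limma called 5 genes (0.0259%) and no member. On those sides Mmp3 turned to 0.33 and Timp3 to -0.12, so the direction of both rests on the labels. The other 8 members were lower on those sides too.

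**Figure D3:**
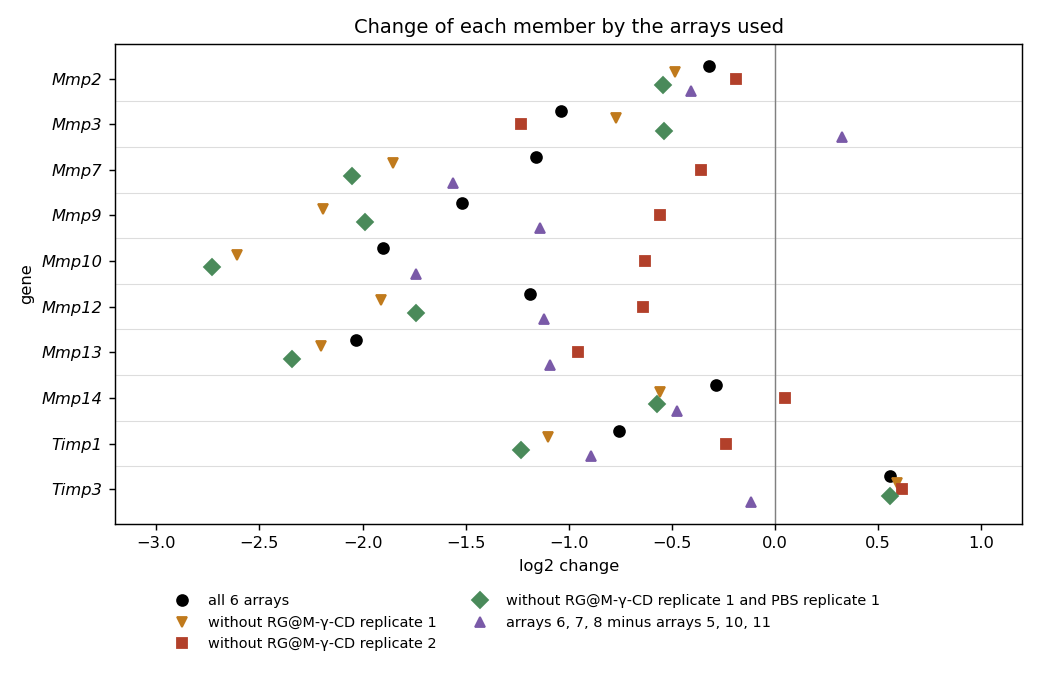
Log2 change of each gene (horizontal axis) with all 6 arrays, with RG@M-γ-CD replicate 1 or 2 left out, with RG@M-γ-CD replicate 1 and PBS replicate 1 left out, and with arrays 6, 7 and 8 (RG@M-γ-CD replicates 2 and 3 and PBS replicate 1) minus arrays 5, 10 and 11. Points without RG@M-γ-CD replicate 2 lie nearest to 0 for 8 genes, and Mmp3 and Timp3 change sign in the last of these.

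The MMPs of the chromosome 9 cluster that could be tested read lower with all 6 arrays, as did 52.8% of all genes. The changes were -2.03 for Mmp13, -1.19 for Mmp12, -1.04 for Mmp3, -1.90 for Mmp10, -0.31 for Mmp8 and -1.16 for Mmp7. Mmp12 and Mmp8 passed the filter on dim probes through the PBS arrays alone, where their means were higher, so the filter favored a lower reading for both. None passed limma's test (adjusted p = 1 for each). Mmp1a, Mmp1b and Mmp27 were well above background on no array, and Mmp20 was not tested. The neutrophil collagenase Mmp8 read -2.21, -4.85 and -4.26 on the treated arrays and -3.41, -3.92 and -3.05 on the control arrays, and was well above background on 1 of 3 treated arrays. Its direction turned on 1 array, with a change of 0.23 once RG@M-γ-CD replicate 2 was dropped and -1.09 once replicate 1 was.

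Of the 15 MMPs that are not members, 7 could be tested and 8 were too dim. Of these 7, 4 read higher and 3 lower, with a median of 0.12 and none at an unadjusted p below 0.05 by limma. Mmp17, a membrane-bound MMP, had the highest change with all arrays, 0.77, and Mmp8 the lowest. The Mmp17 value ran from 0.36 with RG@M-γ-CD replicate 3 dropped to 1.37 with replicate 1 dropped. The other inhibitors of MMPs all read higher (3 of 3 tested), with 0.36 for Timp2, which binds Mmp14 and pro-Mmp2, and 0.72 for Timp4. The membrane-anchored inhibitor Reck lay between them at the median of 0.62, and none of the 3 passed limma's test. Dropping RG@M-γ-CD replicate 2 left 0.14 for Timp2 and 0.27 for Timp4, dropping PBS replicate 3 left 0.23 for Timp4, and with the slide row as a block Timp4 was at 0.01 and Timp2 at 0.15.

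ADAM and ADAMTS proteases share the metalloproteinase fold of MMPs and shed cell surface proteins or cleave proteoglycans. Of 13 tested, 5 read higher and 8 lower, with a median of -0.18. Adamts1, which cleaves versican and aggrecan, read 0.21, 1.33 and 0.58 on the treated arrays and -0.40, -0.23 and -0.12 on the control arrays. The groups were apart, and the change was 0.96 (SE 0.30, limma adjusted p = 1, exact permutation p = 0.1). Adamts12 also had groups that did not overlap, with a change of -0.73, and was well above background on 2 of 3 treated arrays. Adam8, a protease of leukocytes, had the lowest change, -0.94. With RG@M-γ-CD replicate 2 dropped, Adam8 was at -0.45, Adamts12 at -0.26 and Adamts1 at 0.64. Normexp background correction left Adamts12 at -0.33.

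Plasminogen activators and related proteins start the cascade that activates pro-MMPs. Of 8 tested, 2 read higher and 6 lower, with a median of -0.17. Lcn2, a neutrophil and epithelial protein that binds and stabilizes Mmp9, read 4.57, 1.70 and 3.20 on the treated arrays and 4.63, 4.86 and 5.64 on the control arrays. RG@M-γ-CD replicate 1 was nearly level with PBS replicate 1, and the other treated arrays were far below. The change was -1.88 (SE 0.71, limma adjusted p = 1, exact permutation p = 0.1). Plaur, the urokinase receptor, differed by -0.96 with groups that did not overlap, and Bsg, a surface protein that induces MMPs in fibroblasts, by 0.02. With RG@M-γ-CD replicate 2 dropped, Lcn2 was at -1.15 and Plaur at -0.48.

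Matrix substrates of MMPs, such as collagens, fibronectin and elastin, read mostly higher (11 of 14 tested, median 0.15), and none passed limma's test or had groups that did not overlap. Eln, the elastin cleaved by Mmp12, read -3.75, -1.91 and -1.30 on the treated arrays and close to -3.5 on all control arrays, from -3.59 to -3.48. RG@M-γ-CD replicate 1 was below the controls and the other treated arrays above them. Its change of 1.21 became 1.92 without RG@M-γ-CD replicate 1, where limma called it (adjusted p = 0.0316), together with Il1b at -1.68 (adjusted p = 0.0332) and Reck at 1.2 (adjusted p = 0.0495). Spp1, or osteopontin, had the lowest change of the substrates, -1.31, and read -1.51 on RG@M-γ-CD replicate 2 against 2.20 to 3.20 on the other 5 arrays. Leaving out that array gave 0.10.

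Cytokines that induce MMP transcription were tested for 5 of 8 genes, of which 1 read higher and 4 lower, with a median of -0.81. Osm, oncostatin M, read -0.91, -2.08 and -2.32 on the treated arrays and -0.09, -0.82 and -0.67 on the control arrays. The groups were apart by a narrow margin, and the change was -1.24 (SE 0.41, limma adjusted p = 1, exact permutation p = 0.1). Il6 was the 1 that read higher, with a change of 0.88 and values of -0.80 on RG@M-γ-CD replicate 1 and -2.23 and -3.26 on replicates 2 and 3. It was 0.23 without RG@M-γ-CD replicate 1. Of 13 transcription factors known at MMP promoters, among them the AP-1 proteins, 6 read higher and 7 lower, with a median of -0.05. Fosb had the highest change, 1.24, with RG@M-γ-CD replicate 2 at 4.57 and the other 5 arrays from 0.47 to 1.69, and without that array it was 0.10. Rela had the lowest, -0.22, and -0.14 without that array. No gene of these related lists was called by limma with all 6 arrays.

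**Figure D4:**
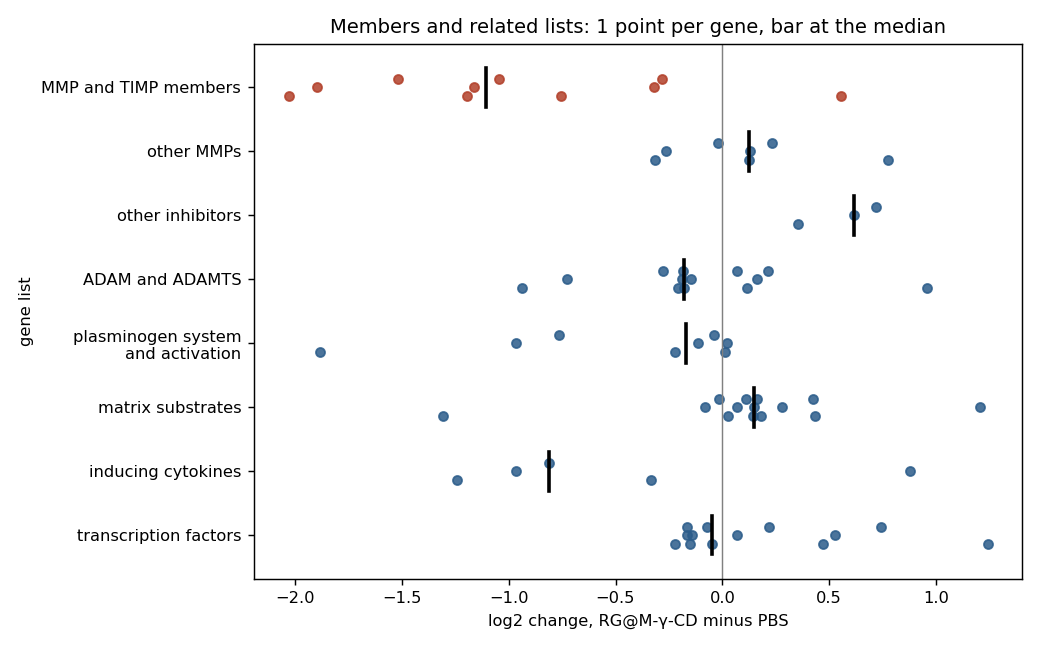
Log2 change (RG@M-γ-CD minus PBS, horizontal axis) of each tested gene, 1 point per gene, in the 10 members and in 7 related lists, with a bar at the list's median. The members' median of -1.10 and that of the inducing cytokines of -0.81 are the lowest, and no gene shown passed the adjusted test.

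Markers of cell types in the tissue also moved between arrays. A summed level is weighted to the brightest probes of its list. The summed level of 11 macrophage markers was 178, 80.3 and 86.5 on the treated arrays and 156 to 179 on the control arrays, and 10 of the 11 read lower, with a median of -0.41. Of 11 neutrophil markers, 9 were tested and 7 read lower, with a median of -1.11, that of Retnlg. Cxcr2 and Retnlg passed the filter through the PBS arrays alone, where their means were higher. Camp passed through the RG@M-γ-CD arrays alone, where its mean was higher. The sums overlapped between groups (47.3 to 101 and 60.2 to 105), but on RG@M-γ-CD replicate 2 the sum was mostly Csf3r, at 6.25. The mean log2 level was 0.71, -1.59 and -1.09 on the treated arrays and 0.41, -0.15 and 0.66 on the control arrays. Among the defining neutrophil markers, Mpo and Ngp were not well above background. The 5 Paneth cell markers all read lower, with a median of -1.22, and their sum was 572 on RG@M-γ-CD replicate 1 but 125 and 111 on replicates 2 and 3, against 270 to 669 on the control arrays. The 7 smooth muscle markers all read higher, with a median of 0.91, and their sum was 103 on RG@M-γ-CD replicate 1 but 665 and 799 on replicates 2 and 3, against 197 to 229 on the control arrays. Fibroblast markers (6 of 9 higher, median 0.24) had sums of 12.4 on RG@M-γ-CD replicate 1, 33.2 on replicate 2 and 30 on replicate 3, against 17.8 to 20.1 on the control arrays. Colon epithelial markers had a median of 0.03. The part of these markers in the changes of the members was not tested.

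**Figure D5:**
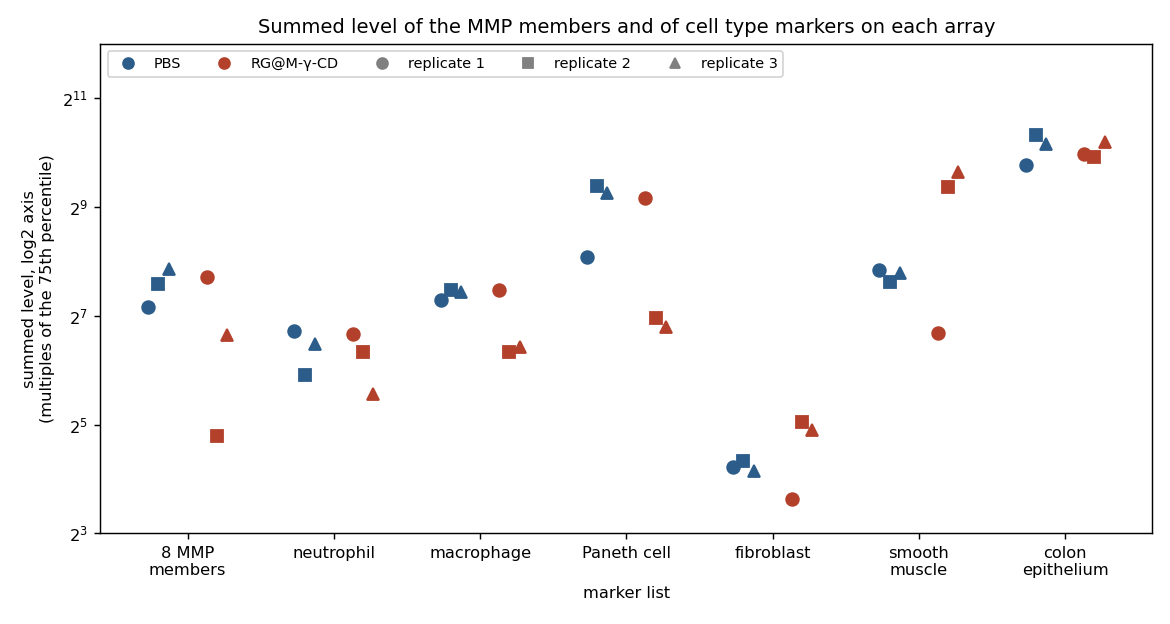
Summed level of the 8 MMP members and of the markers of 6 cell types on each array, in multiples of the array's 75th percentile, on a log2 vertical axis. Each sum is weighted to its brightest probes, and that of the proteases is mostly Mmp7. RG@M-γ-CD replicates 2 and 3 lie below the control arrays in the proteases, the macrophage markers and the Paneth cell markers and above them in smooth muscle markers, where replicate 1 lies with or on the other side of the controls.

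The 6 arrays lay on 1 slide and were scanned once. The first row of the slide held the 3 RG@M-γ-CD arrays and PBS replicate 1, and the second row PBS replicates 2 and 3. With the row as a block, which leaves the first row alone to give the change, the median of the members was -1.14, with 9 of 10 lower, and the median over all genes was 0.10.

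The genes whose levels over the 6 arrays were most like those of Mmp7 were Col6a4 (r = 0.998), Gm13272 (0.997) and Med10 (0.996), out of 18112 genes well above background on all arrays. Those most like Mmp3 were the transcript AK054361 (r = 0.992), Apbb1ip (0.983) and an intergenic transcript (0.974). With 6 points and this many genes, values of this size are a description. Mmp9 was not well above background on all arrays and was not ranked.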

How the data were processed

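RNA of tumor-bearing colon from 6 mice, 1 one-color array each, was compared by the labels of the samples. The authors read the arrays with Agilent Feature Extraction 10.7.1.1, per the labels, and deposited per-spot intensity values that are background-subtracted and not normalized between arrays. They also deposited log2 values per probe, in columns that share a common distribution. Its normalization method is not given in the sources used here, and it served as an alternative.

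The analysis ran in R 4.3.3, with the data.table package, version 1.17.8, for reading. Left out were 3671 control spots per array and 790 outlier spots in all. From log2 intensity the 75th percentile of each array was subtracted, and spots of a probe were averaged. A probe was kept if 1 or both groups had it well above background (at least 0.5 of its spots) on each of their 3 arrays, and the brightest probe stood for its gene. Of 56605 gene probes, 58.3% were named through their accession. Groups were compared with limma 3.58.1 (lmFit and eBayes, Benjamini-Hochberg over all genes, threshold 0.05), and single genes also with an exact two-sided permutation test. Only 3 arrays per group limit the precision.

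The members and the 21 gene lists were chosen with earlier results of these data known. All members are named. Of the related lists, genes at unadjusted p below 0.05, with groups that do not overlap, or with the highest and lowest change are named, and for Mmp9, Mmp3 and Mmp7 the 3 genes most like them. Further lists gave medians of 0.29 for endothelial (6 of 6 higher), -0.58 for squamous (4 of 4 lower), -2.16 for exocrine pancreas (2 of 3 lower), -0.47 for T cell (4 of 4 lower) and -0.25 for B and plasma cell markers (3 of 4 lower), and -0.05 for housekeeping genes (7 of 7 lower). Prss2 and Ctrb1, the 2 lower genes of the exocrine pancreas list, passed the filter through the PBS arrays alone, where they were higher. Alternatives covered background correction, normalization, filters, probes, blocks, the methods' t-test and the arrays used.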

Additional observations from a re-analysis of the deposited data

How the results depend on the processing

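No member passed limma's adjusted test under any of the 19 alternatives, and 185 single-member values kept their direction and side of the threshold. The other 3 reversed, Mmp3 to 0.33 and Timp3 to -0.12 on the sides of the study's clustering and Mmp14 to 0.0479 without RG@M-γ-CD replicate 2, where single-array removals took Mmp14 from -0.559 to 0.0479. Leaving out 1 array at a time gave a members' median of -1.48 to -0.46 and 3 to 9 members whose groups did not overlap. The count was 3 when RG@M-γ-CD replicate 2 was dropped, where 14.8% of all genes did not overlap. Dropping PBS replicate 1 also gave 3 members, beside 14.9% of all genes. At the upper count of 9 the share of all genes was 25.9%, and with all 6 arrays it was 4.57%. Single-array removals gave 0 to 206 genes called on the whole array and 0 to 3 related genes called. The upper counts were all without RG@M-γ-CD replicate 1. The 5 genes called on the clustering sides and the 9 members that did not overlap without RG@M-γ-CD replicate 1 and PBS replicate 1, against 49.3% of all genes, were the other values that moved. Under the alternatives that kept all 6 arrays, the median lay between -1.14 and -0.75, the latter with normexp, and without RG@M-γ-CD replicate 1 and PBS replicate 1 it was -1.49. With the filter on all 6 arrays, Mmp9 and Mmp12 were not tested. With a replicate block, limma called 0 genes, 463 at an unadjusted p below 0.05 against 419 without, and the members' median stayed at -1.10. The deviations of arrays of the same replicate number correlated at -0.25, -0.23 and 0.14, and those of arrays of different number at -0.33 to 0.41. With 3 arrays per group these values cannot tell whether the numbers pair the samples. The methods' t-test passed 45 genes and no member at a fold of at least 2 with an unadjusted p of at most 0.05, and 0 genes after Benjamini-Hochberg adjustment. The probes of Mmp9, Mmp12, Mmp8 and Adamts12 were near background on treated arrays, which limits the precision of their changes. The cause of these shifts was not tested.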
